A study of Homo sapiens with 19 samples.

Results

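The 8 genes described here encode solute carriers that move drugs, bile acids and hormone conjugates across the hepatocyte membrane: SLCO1B1, SLCO1B3, SLCO2B1, SLC10A1, SLC22A3, SLC22A7, SLC22A9 and SLC47A1. They were taken by symbol from a table of 78894 genes, and all 8 were present and passed the filter on low counts in both batches. RNA was sequenced from HepaRG, a human hepatic line labelled as a hepatic carcinoma, whose cells were differentiated in 12-well plates before treatment. The 19 libraries fell into 7 groups in 2 batches. Batch 1 held 3 libraries each of a negative control siRNA (siNC), an siRNA against ADAR and an siRNA against ADARB1, all transfected at 20 nM. Batch 2 held 3 libraries of its own siNC control, 2 of interferon alpha (IFNa) at 1000 U/mL, 3 of BX795 at 1 µM, and 2 of BX795 at 1 µM together with the ADAR siRNA at 20 nM. Both compounds were added on the day of transfection and kept through media changes at 24 h and 48 h, the second of which brought every group into serum-free medium. Each gene was targeted by 1 siRNA, and the sources used here leave unstated whether the wells given IFNa or BX795 without the ADAR siRNA were also transfected with siNC. Nothing in the labels says that replicates came from separate cultures, so p-values measure only the spread between these libraries, which may be technical.

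Hepatocytes take up anionic drugs such as statins, and bilirubin and steroid conjugates, through organic anion transporting polypeptides in the membrane facing the blood, namely OATP1B1 (SLCO1B1), OATP1B3 (SLCO1B3) and OATP2B1 (SLCO2B1). NTCP (SLC10A1) imports bile acids with sodium. The SLC22 family adds OAT2 (SLC22A7) and OAT7 (SLC22A9) for organic anions and OCT3 (SLC22A3) for organic cations. SLC47A1 encodes MATE1, which passes organic cations out into bile in exchange for protons, so it is an exporter and not an uptake carrier. ADAR and ADARB1 convert adenosine to inosine in double-stranded RNA. Interferon alpha is an antiviral cytokine known to lower several drug-handling genes in hepatocytes. BX795 is a kinase inhibitor that blocks TBK1 and the related IKK epsilon, both of which act downstream of sensors of viral nucleic acid.

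Total counts were 42.7 to 77.1 M per library in batch 1 and 13.1 to 34.7 M in batch 2. Levels are CPM, counts set to a common library total, after scaling by the trimmed mean of M-values within a batch, and a gene was called changed at an adjusted p below 0.05 in edgeR's quasi-likelihood test over all genes. ADAR itself stood at 239, 239 and 241 CPM in the batch 1 controls and at 57.7, 56.0 and 65.1 CPM after its siRNA (log2 fold change -2.01 ± 0.05 SE, adjusted p = 4.13e-12). ADARB1 stood at 30.8, 28.7 and 30.2 CPM in the controls and at 10.1, 9.41 and 10.4 CPM after the ADARB1 siRNA. After the ADAR siRNA, ADARB1 was also lower, at 26.6, 23.2 and 24.9 CPM (-0.26 ± 0.06, adjusted p = 0.00178), and in batch 2 it was lower than in the controls with BX795 (-0.28 ± 0.08, adjusted p = 0.0210) and with the combination (-0.47 ± 0.09, adjusted p = 0.00394). In batch 2, ADAR was at 215 to 266 CPM in the controls, 742 to 839 CPM with IFNa, 273 to 302 CPM with BX795 and 56.1 to 59.9 CPM with BX795 and its siRNA, so the targeted genes matched the labels in every library. Hepatocyte markers were present in every group: 10 of them summed to 64889 to 69864 CPM in the batch 1 controls and 13295 to 15913 CPM in the batch 2 controls. Of 8 biliary and progenitor markers, EPCAM had 0 counts in every library of all groups but the ADARB1 siRNA group.

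For 6 of the 8 transporters, the control groups of the 2 batches differed more from each other than any treatments did within a batch. Compared per kb of exon, which allows levels of different genes to be set side by side, the order in the batch 1 controls was SLC22A7 (63.0 ± 4.93 SD, n = 3), SLCO1B1 (44.3 ± 2.26), SLCO2B1 (17.3 ± 1.24), SLC22A3 (9.95 ± 0.225), SLC22A9 (7.60 ± 0.242), SLC47A1 (7.55 ± 0.567), SLC10A1 (5.89 ± 0.579) and SLCO1B3 (0.794 ± 0.0426) CPM per kb. SLC22A9 and SLC47A1 overlapped in this order, and with the longest transcript in place of all exons SLC47A1 moved up to 13.2 CPM per kb, above SLC22A3. In the batch 2 controls the highest was SLC22A3 at 9.31 ± 0.589 CPM per kb (n = 3), followed by SLCO2B1 at 2.84 ± 0.536 and SLC22A7 at 2.50 ± 0.992, which overlapped each other. SLC47A1, SLCO1B1 and SLCO1B3 lay close together at 1.43, 1.27 and 1.22 CPM per kb, and SLC10A1 and SLC22A9 were lowest at 0.595 and 0.540 CPM per kb. The batch 2 order was not repeated with the longest transcript. For SLC47A1 that is 3280 bases, against 5719 for all exons, so its closeness to the others depends on the length used. Of all genes tested, 58.1% were called between the 2 control groups, 30.0% lower and 28.1% higher in batch 2, and among the transporters the batch 2 controls were lower for SLCO1B1 (log2 difference -5.39 ± 0.11 SE), SLC22A7 (-4.95 ± 0.18), SLC22A9 (-4.02 ± 0.15), SLC10A1 (-3.61 ± 0.26), SLCO2B1 (-2.86 ± 0.11), SLC47A1 (-2.61 ± 0.14) and SLC22A3 (-0.35 ± 0.07). For SLCO1B3 the difference was 0.36 ± 0.20 (adjusted p = 0.124). Both groups carry the same siRNA label, so this is a difference between batches, and every treatment was therefore compared only within its own batch. In bulk RNA, fewer cells of a type and less RNA per cell cannot be told apart.

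**Figure D1:**
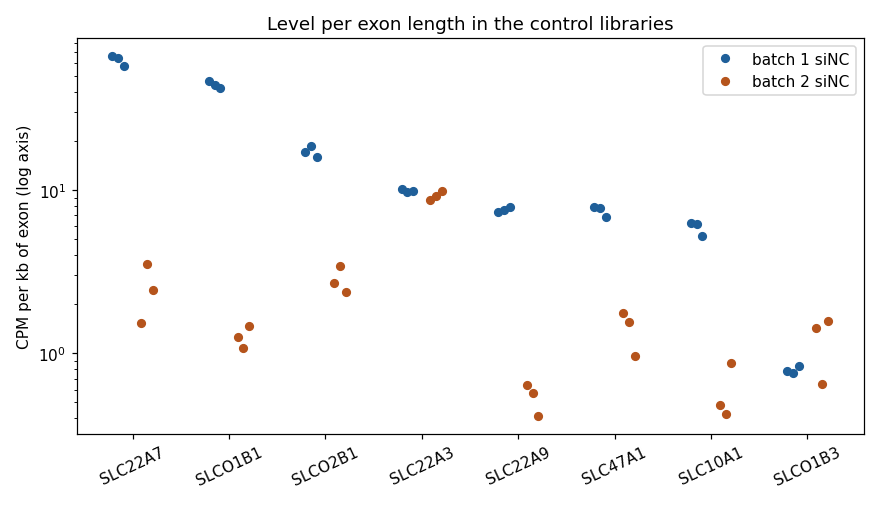
Level of each transporter in CPM per kb of exon (log axis) in the control siRNA libraries, 1 point per library, with batch 1 in blue and batch 2 in orange. SLC22A3 is near 10 CPM per kb in both batches, SLCO1B3 is near 1 in both, and the other transporters are lower in every batch 2 library than in any of batch 1.

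In batch 1, SLCO1B1 was lower after either siRNA, SLCO2B1 was lower after both with the larger fall after the ADAR siRNA, and SLCO1B3 was higher after the ADAR siRNA. SLCO1B1, the carrier best known for statin uptake, lies on chromosome 12 at chr12:21131194-21239796 (GRCh38.p14, plus strand). It stood at 104, 98.2 and 94.2 CPM in the controls, at 82.6, 82.0 and 83.0 CPM after the ADAR siRNA and at 76.9, 83.9 and 80.5 CPM after the ADARB1 siRNA. Every library of both knockdowns lay below every control, with log2 fold changes of -0.26 ± 0.04 (adjusted p = 0.000239) and -0.30 ± 0.04 (adjusted p = 0.000266). The knockdowns overlapped each other, and their difference was 0.04 ± 0.04 (adjusted p = 0.566).

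SLCO1B3 lies on the same chromosome at chr12:20810705-20916911 (plus strand) and encodes a closely related carrier. Its level was 2.77, 2.69 and 2.98 CPM in the controls and 4.09, 3.86 and 3.65 CPM after the ADAR siRNA, with no overlap (0.46 ± 0.11, adjusted p = 0.00546). After the ADARB1 siRNA it was 2.71, 3.00 and 2.93 CPM, overlapping the controls (0.03 ± 0.12, adjusted p = 0.906). Of the 50-base stretches in SLCO1B3 transcripts, 52.7% also occur in transcripts of another gene, chiefly the annotated readthrough gene SLCO1B3-SLCO1B7, so counts could be split between them. With both genes summed, the change after the ADAR siRNA was 0.36 ± 0.14 (adjusted p = 0.0508), an alternative chosen after the data were seen, and the call for SLCO1B3 is uncertain for that reason.

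SLCO2B1, whose product OATP2B1 is also found in intestine, lies at chr11:75151107-75206549 (plus strand). It was at 178, 192 and 166 CPM in the controls, 122, 128 and 122 CPM after the ADAR siRNA and 154, 154 and 150 CPM after the ADARB1 siRNA. The 3 groups did not overlap. Its log2 fold change was -0.53 ± 0.05 (adjusted p = 7.23e-07) for the ADAR siRNA and -0.23 ± 0.05 (adjusted p = 0.00412) for the ADARB1 siRNA, and the direct comparison of both knockdowns gave -0.30 ± 0.05 (adjusted p = 0.000183).

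RefSeq lists an upstream and a downstream start for SLCO2B1. This gene fell in 4 of the comparisons against controls. The window before its downstream start held a match to a sequence of a liver factor, and any part of that match in the falls was not tested. The window before the upstream start, at chr11:75151107, held no match to any motif searched. Only the matching window of SLCO2B1 is shown. It is the 100 bases before the downstream start, read 5′ to 3′ along the gene from RefSeq (GRCh38.p14), with the match in capitals.
SLCO2B1, a downstream start, chr11:75159732-75159831: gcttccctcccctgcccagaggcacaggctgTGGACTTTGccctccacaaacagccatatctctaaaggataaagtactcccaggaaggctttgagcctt
The capitals mark the reverse complement of CAAAGTCCA, a sequence of the kind bound by HNF4A. Within 250 bases before the start, on both strands, CAAAGTCCA occurred in 1 of the 6 windows found for 5 of the 8 transporters and in 0.325% of 35116 RefSeq windows. A further motif searched, GTTAAT, occurred in 2 of the 6 windows, those of SLCO1B1 and SLCO1B3, and in 6.23% of all windows. Motifs without a match in the 6 included CAAAGGTCA, a variant HNF4A sequence (0.339% of all windows), and TGTTTAC, bound by FOXA factors (2.98%). TTGCGCAA, bound by C/EBP factors (0.131%), and the DR1 direct repeat bound by pairs of nuclear receptors (0.0171%) had none either. The IR1 inverted repeat bound by the bile acid receptor occurred in 0 of all windows, so its search could find nothing. Absence of motifs this rare from 6 windows cannot be read as a result. Such matches describe letters and do not show binding. SLC22A7, which fell in the same comparisons as SLCO2B1, had no match to any motif searched in the window found for it.

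SLC10A1 was the transporter with the largest response to the ADARB1 siRNA among the 8. The gene for the sodium-dependent bile acid importer lies at chr14:69775416-69797241 on the minus strand. Its level was 12.8, 12.6 and 10.7 CPM in the controls and 4.57, 5.18 and 5.70 CPM after the ADARB1 siRNA, which is 42.6% of the control mean (-1.23 ± 0.10, adjusted p = 2.29e-06). After the ADAR siRNA it was 9.37, 8.64 and 10.4 CPM, also below every control, with a smaller fall (-0.34 ± 0.10, adjusted p = 0.0140). Between the knockdowns it was higher after the ADAR siRNA by 0.89 ± 0.11 (adjusted p = 1.26e-05), a call in that direction shared among the 8 only with SLCO1B3 (0.43 ± 0.11, adjusted p = 0.00917). The smaller fall was not called without control replicate 1 (-0.29, adjusted p = 0.0651) or without ADAR siRNA replicate 2 (-0.28, adjusted p = 0.0670).

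Both organic anion carriers of the SLC22 family fell after the ADAR siRNA, and SLC22A7 fell after the ADARB1 siRNA too. SLC22A7, encoding OAT2, a carrier of nucleobase-like and other small anionic substrates, lies at chr6:43295714-43305538 (plus strand). It stood at 235, 229 and 202 CPM in the controls, at 141, 153 and 153 CPM after the ADAR siRNA and at 168, 163 and 178 CPM after the ADARB1 siRNA. The fall to 67.1% of the control mean after the ADAR siRNA (-0.58 ± 0.06, adjusted p = 1.36e-06) was larger than that to 76.4% after the ADARB1 siRNA (-0.39 ± 0.06, adjusted p = 0.000221). Their difference was -0.19 ± 0.06 (adjusted p = 0.0161), and it was not called without ADAR siRNA replicate 1 (adjusted p = 0.0809) or ADARB1 siRNA replicate 3 (adjusted p = 0.0661).

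SLC22A9, encoding the liver-restricted carrier OAT7, lies at chr11:63369785-63410294 (plus strand). Levels were 17.4, 17.8 and 18.6 CPM in the controls and 11.1, 10.4 and 11.9 CPM after the ADAR siRNA, the largest fall of the 8 after that siRNA (-0.69 ± 0.06, adjusted p = 1.02e-06). After the ADARB1 siRNA the level was 17.9, 16.5 and 16.0 CPM, which overlapped the controls (-0.09 ± 0.06, adjusted p = 0.387). The knockdowns differed by -0.60 ± 0.06 (adjusted p = 5.13e-06).

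The cation carriers followed 2 patterns. SLC22A3, encoding the low-affinity cation carrier OCT3, lies at chr6:160348378-160452577 (plus strand) and was at 34.1, 32.6 and 33.2 CPM in the controls. It was lower in each ADAR siRNA library, at 26.3, 25.6 and 29.1 CPM (-0.30 ± 0.05, adjusted p = 0.000181). With the ADARB1 siRNA it was 34.2, 34.5 and 35.3 CPM, just above the highest control, and that difference was not called (0.06 ± 0.05, adjusted p = 0.504). SLC47A1, encoding the cation exporter MATE1, lies at chr17:19533854-19579034 (plus strand) and fell after both siRNAs. It stood at 45.3, 44.7 and 39.4 CPM in the controls, 26.9, 29.6 and 30.2 CPM after the ADAR siRNA (-0.58 ± 0.06, adjusted p = 1.71e-06) and 31.8, 31.6 and 31.7 CPM after the ADARB1 siRNA (-0.44 ± 0.06, adjusted p = 8.21e-05). Although those knockdown groups did not overlap, their difference of -0.13 ± 0.06 was not called (adjusted p = 0.0881), except without the filter on low counts (-0.15, adjusted p = 0.0220).

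**Figure D2:**
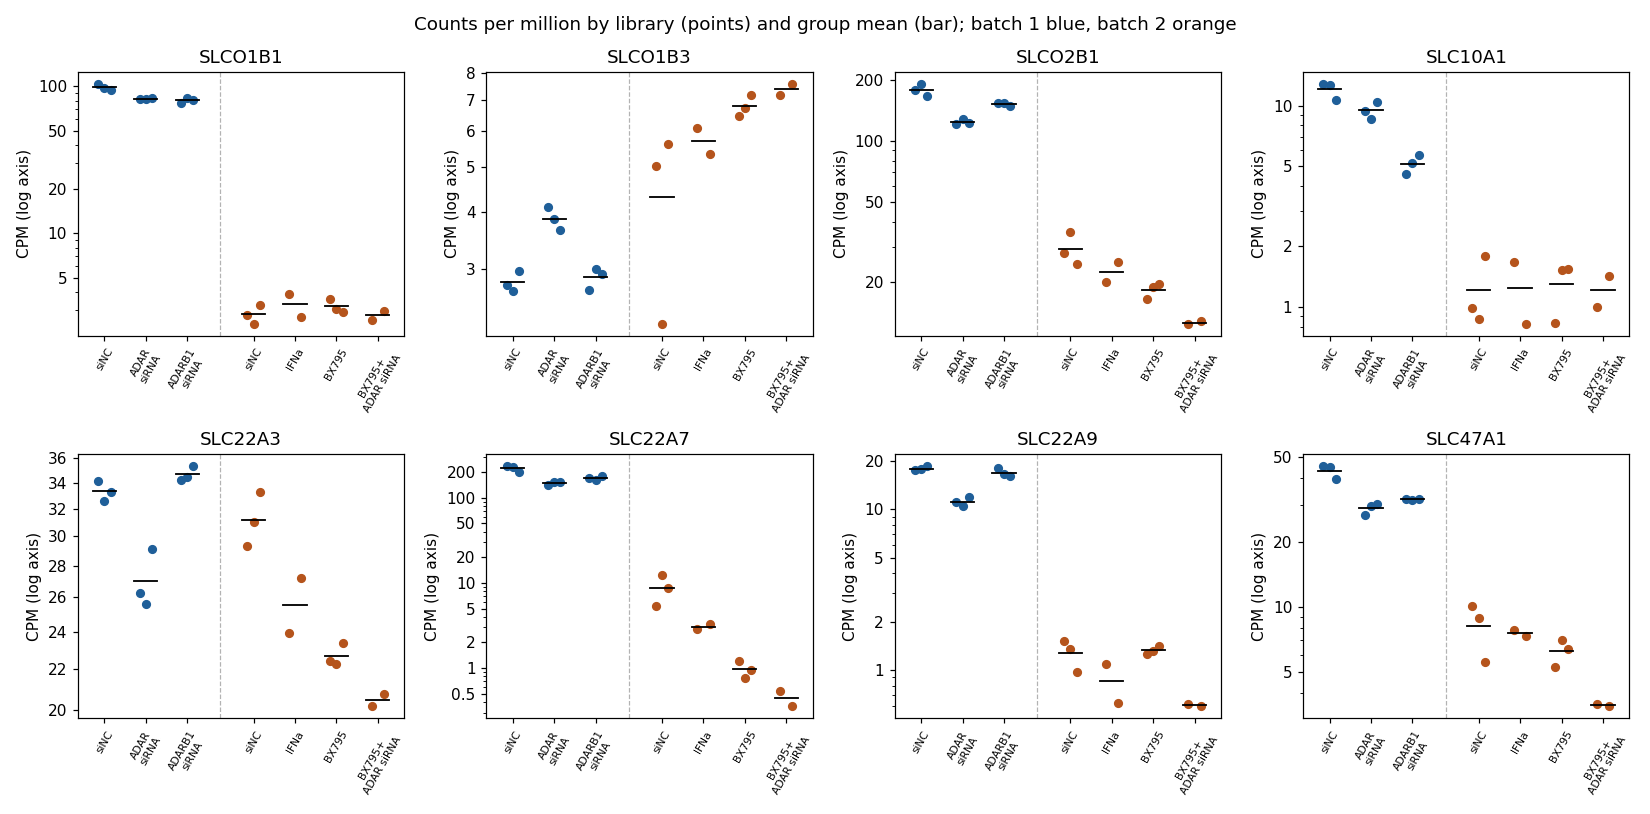
CPM of each transporter (log axis, with a scale of its own in each panel) in all 19 libraries, with 1 point per library, a bar at the group mean, and a dashed line between batch 1 (blue) and batch 2 (orange). In batch 1 the ADAR siRNA libraries lie below the controls for every transporter but SLCO1B3, and in batch 2 SLC22A7 steps down from control to IFNa, BX795 and BX795 with ADAR siRNA.

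Counted together, 7 of the 8 transporters fell and 1 rose after the ADAR siRNA, in a comparison where 37.8% of all genes tested were called, 17.6% of them lower and 20.2% higher as shares of all genes. Their median log2 fold change was -0.43, beside -0.01 over all genes. After the ADARB1 siRNA, 5 of the 8 fell and none rose at this threshold, where 16.7% of all genes were called, 8.45% lower and 8.25% higher, and the median was -0.26. Both comparisons share the same 3 control libraries. Directly compared, 2 of the 8 were higher and 4 lower after the ADAR than after the ADARB1 siRNA, with 35.7% of all genes called, 18.8% higher and 16.9% lower.

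The wider solute carrier set did not move in 1 direction after the ADAR siRNA. Of 39 other uptake and exchange carriers, 33 were tested, of which 10 rose and 9 fell (median -0.10). SLC22A25, a liver carrier of the same family as SLC22A9, fell by 1.41 on the log2 scale, the nucleoside importer SLC28A1 fell by 0.66, and SLC29A3, a nucleoside carrier of intracellular membranes, rose by 0.60. Of 10 ABC efflux pumps, which move drugs and bile components out of the cell, 4 rose and 3 fell. The phospholipid pump ABCB4 (-0.79 ± 0.05) and the multidrug pump ABCB1 (-0.54 ± 0.04) were among those that fell, and ABCC4 rose by 0.46. After the ADARB1 siRNA, 4 of the 33 carriers rose and 6 fell, and 7 of the 10 pumps fell while 2 rose, with ABCG2, an exporter of sulfate conjugates, at -0.90 ± 0.09. ABCG2 was higher after the ADAR than after the ADARB1 siRNA by 1.22 ± 0.09.

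Of 20 transcription factors and nuclear receptors that are known to govern hepatic transporter genes, 16 fell and 1 rose after the ADAR siRNA (median -0.37). PROX1 (-0.87 ± 0.04), CEBPB (-0.76 ± 0.03) and HNF4A (-0.67 ± 0.04) had the smallest p-values. AHR, the single regulator that rose, changed by 0.12 ± 0.04. After the ADARB1 siRNA, 7 of the 20 fell and 1 rose (median -0.06), with the bile acid repressor NR0B2 at -0.90 ± 0.12 and PROX1 at -0.35 ± 0.04. HNF4A (0.00 ± 0.04) was not called after that siRNA, and it was lower after the ADAR siRNA in the direct comparison (-0.67). Cell type markers moved too: the 10 hepatocyte markers summed to 48974 to 52156 CPM after the ADAR siRNA and 56519 to 59822 CPM after the ADARB1 siRNA, below the 64889 to 69864 CPM of the controls. Its members did not all move 1 way: after the ADAR siRNA 6 of 10 fell, among them CPS1 (-1.24 ± 0.05) and ALB (-0.58 ± 0.03), 3 were not called, and CYP3A4 rose by 2.25 ± 0.05 (adjusted p = 2.93e-12). After the ADARB1 siRNA 7 of 10 fell, CYP3A4 included (-0.37 ± 0.05), and 3 were not called. The 8 biliary and progenitor markers summed to 987 to 1023, 555 to 563 and 498 to 537 CPM after the ADAR siRNA, after the ADARB1 siRNA and in the controls. Of 7 tested, 6 rose after the ADAR siRNA, while 2 rose and 1 fell after the ADARB1 siRNA. Their part in the transporter changes was not tested.

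**Figure D3:**
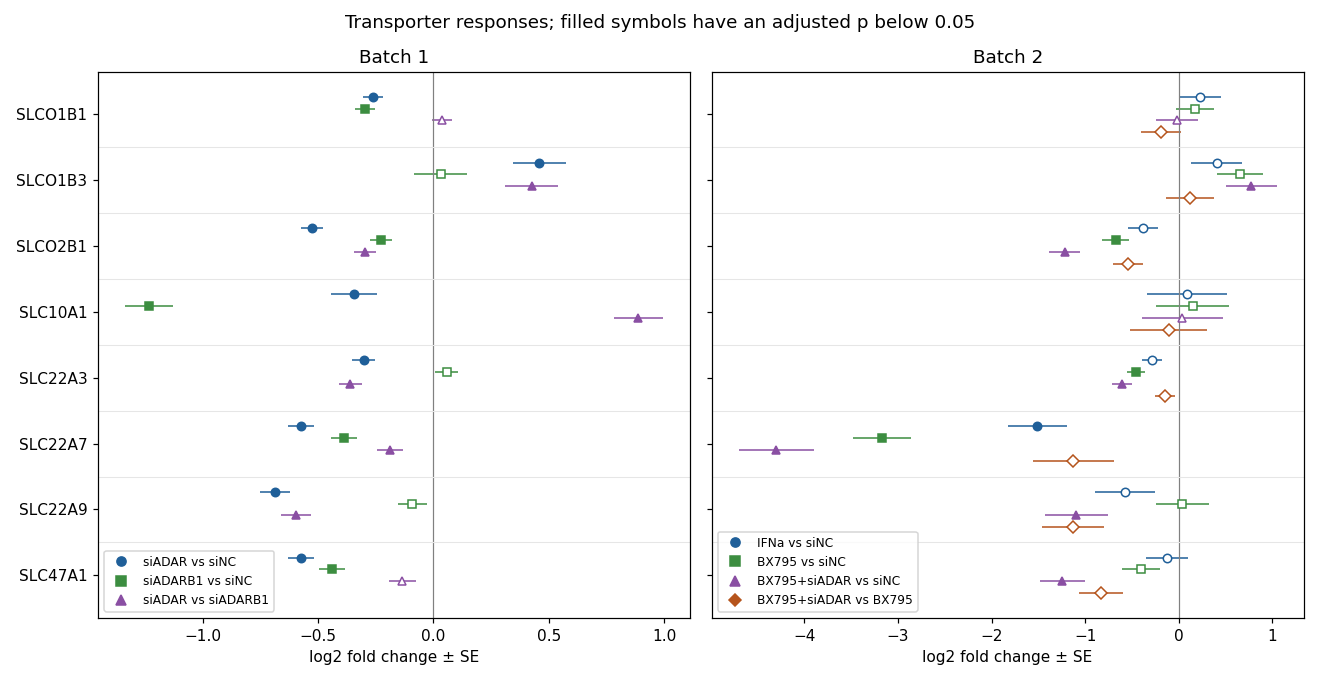
Log2 fold change ± SE of each transporter in the 3 comparisons of batch 1 (left) and the 4 of batch 2 (right), with filled symbols where the adjusted p is below 0.05. SLC10A1 is set apart in batch 1 by its fall of 1.23 after the ADARB1 siRNA, and SLC22A7 in batch 2 by its values of -1.51, -3.17 and -4.30 against the controls.

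With IFNa, SLC22A7 was the single transporter of the 8 that was called, in a comparison where 22.7% of all genes were called, 10.9% lower and 11.9% higher. It was at 5.43, 12.4 and 8.63 CPM in the batch 2 controls (106 to 185 counts per library) and at 2.86 and 3.30 CPM with IFNa (84 to 103 counts), with no overlap (-1.51 ± 0.32, adjusted p = 0.0120). Without IFNa replicate 1 the fold change was -1.40 and not called (adjusted p = 0.154). The other transporters gave log2 differences from -0.58 ± 0.32 for SLC22A9 (adjusted p = 0.212) to 0.41 ± 0.27 for SLCO1B3 (adjusted p = 0.298). SLC22A3 came nearest to the threshold: it was at 29.3, 31.0 and 33.2 CPM in the controls and at 23.9 and 27.2 CPM with IFNa, without overlap (-0.29 ± 0.10, adjusted p = 0.0646). The median of the 8 was -0.21, beside -0.02 over all genes. Of 27 other carriers tested, 2 rose and 3 fell. Of 18 regulators tested, 2 rose and 2 fell, with CEBPB at -0.81 ± 0.20.

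With BX795, 3 of the 8 transporters fell, SLC22A7, SLCO2B1 and SLC22A3, where 42.1% of all genes were called, 21.9% lower and 20.2% higher. SLC22A7 was at 1.21, 0.764 and 0.957 CPM, or 21 to 29 counts per library, which is 11.1% of the control mean (-3.17 ± 0.31, adjusted p = 9.09e-05). SLCO2B1 was at 27.8, 35.5 and 24.8 CPM in the controls and 16.4, 19.1 and 19.5 CPM with BX795 (-0.68 ± 0.14, adjusted p = 0.00436). SLC22A3 was at 22.4, 22.3 and 23.4 CPM with BX795, below every control (-0.46 ± 0.09, adjusted p = 0.00347). For all 3, no BX795 library reached a control library, and SLC22A3 lost its call when the filter on low counts was left out (-0.35, adjusted p = 0.0520). SLCO1B3 lay above the controls without overlap, at 6.46, 6.73 and 7.19 CPM beside 5.04, 2.28 and 5.62 CPM, and narrowly missed the threshold (0.65 ± 0.25, adjusted p = 0.0534). It was called higher by DESeq2 (adjusted p = 0.0294), without the filter on low counts (0.00200), in 1 fit of all 19 libraries (0.00940), and without control replicate 1 (0.0355) or 3 (0.0348). It was not called with a GC correction (0.418), summed with its readthrough gene (0.40, adjusted p = 0.160), or without control replicate 2 or any 1 BX795 library. SLCO1B1 (0.17 ± 0.20), SLC10A1 (0.15 ± 0.39), SLC22A9 (0.04 ± 0.28) and SLC47A1 (-0.41 ± 0.20) were not called. SLC10A1 and SLC22A9 had 12 to 47 counts in each control and BX795 library, which limits what could be detected for them. The median of the 8 was -0.19, beside -0.01 over all genes.

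With BX795 and the ADAR siRNA together, 5 of the 8 transporters were lower than in the controls and 1 was higher, where 33.0% of all genes were called, 16.0% lower and 16.9% higher. Their median was -0.85, beside -0.03 over all genes. SLC22A7 was at 0.538 and 0.357 CPM, or 12 to 14 counts per library and 5.07% of the control mean (-4.30 ± 0.40, adjusted p = 4.87e-05). SLCO2B1 was at 12.4 and 12.8 CPM (-1.22 ± 0.17, adjusted p = 0.000467), and SLC22A3 at 20.2 and 20.7 CPM (-0.61 ± 0.10, adjusted p = 0.00175). SLC47A1 was at 10.1, 8.93 and 5.54 CPM in the controls and 3.53 and 3.45 CPM with the combination (-1.25 ± 0.24, adjusted p = 0.00320). All of these groups were apart from the controls. SLC22A9, at 1.51, 1.34 and 0.977 CPM in the controls and 0.614 and 0.595 CPM with the combination (16 to 20 counts), was called (-1.09 ± 0.34, adjusted p = 0.0296), but not without control replicate 1 (adjusted p = 0.0692), control replicate 2 (0.0665) or either library of the combination (0.0940 and 0.176). SLCO1B3, at 7.18 and 7.59 CPM, rose by 0.77 ± 0.27 (adjusted p = 0.0469), and lost its call without either library of the combination (adjusted p = 0.0935 and 0.209) and when summed with its readthrough gene (0.50, adjusted p = 0.128).

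SLCO1B1 and SLC10A1, both of which fell after the ADAR siRNA in batch 1, were at 2.57 and 2.98 CPM and at 0.998 and 1.43 CPM with the combination. Their log2 differences from the batch 2 controls were -0.02 ± 0.22 (adjusted p = 0.963) and 0.04 ± 0.43 (adjusted p = 0.957). SLCO1B1 rested on 36 to 100 counts and SLC10A1 on 13 to 48 counts in these libraries. Against BX795 alone the combination differed by -0.19 ± 0.21 for SLCO1B1 (adjusted p = 0.739) and -0.11 ± 0.41 for SLC10A1 (adjusted p = 0.936). With SEs of this size, falls like those of batch 1 could not be told from no change.

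Set against BX795 alone, the combination gave no call among the 8 transporters in edgeR's test, where 3.66% of all genes were called, 2.17% lower and 1.49% higher. At an unadjusted p below 0.05 there were 4 (SLCO2B1, SLC22A7, SLC22A9 and SLC47A1), and DESeq2 called 2 (SLCO2B1 and SLC47A1). The log2 differences were -0.54 ± 0.16 for SLCO2B1 (adjusted p = 0.106), -1.13 ± 0.43 for SLC22A7 (adjusted p = 0.216), -1.13 ± 0.33 for SLC22A9 (adjusted p = 0.0943) and -0.84 ± 0.24 for SLC47A1 (adjusted p = 0.0830). In these 4 and in SLC22A3 both libraries of the combination lay below all 3 of BX795. The shares of all genes separated in this way, or at an unadjusted p below 0.05, were not counted. Neither count can therefore be read as a response of the transporters in particular. These values stand on 2 libraries of the combination. ADAR differed by -2.32 ± 0.12 (adjusted p = 1.12e-05) in the same comparison. An interaction contrast, which subtracts the batch 1 response to the ADAR siRNA from its response with BX795, called none of the 8, with 3.42% of all genes called, 2.00% lower and 1.42% higher. None of the 8 had an unadjusted p below 0.05, DESeq2 called none, and the values ran from -0.53 ± 0.50 for SLC22A7 to 0.25 ± 0.36 for SLC10A1. Batch and BX795 cannot be told apart in that contrast.

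Other transporter and regulator genes in batch 2 moved in both directions. With BX795, 4 of 27 other carriers rose and 10 fell: the cation exporter SLC47A2, the paralogue of SLC47A1, fell by 1.81 on the log2 scale, the nucleoside carrier SLC29A1 fell by 1.03, and the prostaglandin carrier SLCO2A1 rose by 2.33. Of the 18 regulators tested, 7 fell and 1 rose (median -0.35), with RARA at -1.09 ± 0.11, CEBPA at -1.81 ± 0.26 and the glucocorticoid receptor NR3C1 at 0.80 ± 0.10. Against the controls, the combination gave 5 higher and 10 lower of the 27 carriers and 1 higher and 9 lower of the 18 regulators (median -0.49), with the xenobiotic receptor NR1I2 at -2.11 ± 0.27. Against BX795 alone, HNF4A (-0.62 ± 0.12, adjusted p = 0.0174) and the bile acid receptor NR1H4 (-0.84 ± 0.20, adjusted p = 0.0426) were the 2 regulators called, both lower. The batch 2 comparisons against siNC share the same 3 control libraries.

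The GC trend of the libraries moved with the groups of batch 2. The mean level of genes above 60% GC relative to genes below 40% GC was 0.27, 1.03 and 0.86 on the log2 scale in the controls, -0.37 and 0.09 with IFNa, -0.22, -0.64 and -0.52 with BX795, and 0.01 and -0.52 with the combination, whereas batch 1 libraries spanned -0.09 to 0.11. The transporters range from 35.0% GC (SLCO1B3) to 58.8% GC (SLC22A7). After a correction for GC, SLC22A7 kept its call with IFNa (-1.12, adjusted p = 0.00976), with BX795 (-2.62, adjusted p = 2.64e-05) and with the combination (-3.85), as did SLCO2B1 with BX795 (-0.42, adjusted p = 0.0271). SLCO1B3 lost its call with the combination (0.37, adjusted p = 0.235), and its difference with BX795 was 0.23 (adjusted p = 0.418). SLCO1B1 (36.3% GC) was not called against the controls with or without the correction. Its difference changed sign with IFNa (0.23 to -0.11) and with BX795 (0.17 to -0.22). With the combination it moved from -0.02 to -0.40 (adjusted p = 0.170 after the correction), so the value near 0 depends on the GC trend. With that correction the combination was called lower than BX795 alone for SLCO2B1 (-0.60, adjusted p = 0.0273), SLC22A7 (-1.23, adjusted p = 0.0480) and SLC47A1 (-0.86, adjusted p = 0.0454). The summed hepatocyte markers were 12411 to 13199 CPM with IFNa, 16097 to 17228 CPM with BX795 and 10240 to 12866 CPM with the combination, beside 13295 to 15913 CPM in the controls. These sums hold members that went both ways: with BX795 4 of 10 rose, among them CYP3A4 (5.51 ± 0.21) and APOB (1.09 ± 0.18), and 3 fell, namely FGB (-0.63 ± 0.14), CPS1 (-0.59 ± 0.16) and ALB (-0.30 ± 0.10), with a median of -0.21. With IFNa 4 fell and none rose, and with the combination 5 fell and 2 rose. Biliary and progenitor markers (8 genes) summed to 355 to 402 CPM in the controls, 333 to 339 CPM with IFNa, 221 to 225 CPM with BX795 and 277 to 306 CPM with the combination. With BX795 3 of the 6 tested fell, including KRT19 (-1.62 ± 0.16) and ITGB4 (-1.54 ± 0.16), and 2 rose, including KRT7 (1.17 ± 0.16). Mesenchymal markers (6 genes) summed to 305 to 364 CPM in the controls, 282 to 328 CPM with IFNa, 202 to 209 CPM with BX795 and 170 to 176 CPM with the combination, and the part of these markers in the transporter values was not tested.

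Among the 8, SLCO2B1 and SLC22A7 varied most alike over the 19 libraries (Pearson r = 0.884 of log2 CPM centred on the batch mean), followed by SLCO2B1 with SLC47A1 (0.874) and with SLC22A3 (0.852). Of 14178 other genes compared in the same way, SLC22A7 was most like KHK, the fructose kinase (0.988), and HPX, which encodes the plasma haem carrier hemopexin (0.982). SLCO2B1 was most like MAT1A, the hepatic methionine adenosyltransferase (0.967), and GJB1, a gap junction gene (0.966). SLC22A9 was closest to SERPIND1 (0.965) and GLDC (0.926), SLC47A1 to SMLR1 (0.932) and GBA3 (0.926), and SLC22A3 to YBX3 (0.958) and ADGRL1 (0.956). SLCO1B3 was closest to TOPORS (0.947) and RASSF9 (0.926). The lowest best matches were those of SLCO1B1 with PHYH (0.843) and SLC10A1 with HSD17B4 (0.824). These correlations describe 19 libraries that share treatments, depth and the GC trend, and they carry no test.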

How the data were processed

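The authors deposited gene-level expected counts. The submitters' processing notes name STAR, Salmon and genome build GRCh38.p14. Versions, settings, strand handling and the annotation were not given in the sources used here. Ribosomal RNA had been removed and directional libraries sequenced as paired reads, per the labels' protocols. Of all deposited values, 94.82% lay within 0.005 of a whole number, and counts were rounded. Symbols were matched to 61463 of 78894 identifiers. SLC22A7 and SLC47A1 overlap opposite-strand genes by 148 and 203 exon bases, and whether reads were separated by strand is not known. SLCO1B1 overlaps the gene AC022335.1 by 300 exon bases on the same strand, which strand separation would not resolve. Of its 50-base stretches, 9.27% also occur in transcripts of other genes.

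Each batch was fitted alone with edgeR 4.0.16 (R 4.3.3): trimmed mean of M-values scaling, filterByExpr, 1 mean per group and quasi-likelihood F tests, with Benjamini-Hochberg adjustment over the 21747 genes tested in batch 1 and 20718 in batch 2. The biological coefficient of variation was 6.68% in batch 1 and 14.2% in batch 2. The comparison of the control groups and the interaction used a fit of all 19 libraries (23121 genes). The pipeline was tested on simulated data. Replicates differed beyond sampling noise (chi-square per gene 5.43 to 56.8). Lengths, GC content and shared stretches came from GENCODE transcripts; GC was known for 87.7% and 88.8% of tested genes.

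Named were the 8 transporters, ADAR, ADARB1, up to 3 called genes of smallest p per list and comparison, and 2 most similar genes (at least 1 CPM) for each transporter. Correlations used log2(CPM + 0.5). Other genes named, the motifs and the GC values quoted were chosen after the values were seen. The transporters and lists were chosen with earlier results of these data known. Alternatives were DESeq2 1.42.0 size factors and Wald test, no filter, a replicate block, a GC correction, leaving out each library, and 1 shared fit. Some genes and motifs that were examined are not reported here.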

Additional observations from a re-analysis of the deposited data

How the results depend on the processing

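No called transporter changed direction under any alternative run. Leaving out each library in turn gave 7 to 8 transporter calls for the ADAR siRNA (7052 to 7699 genes called; 8223 with all libraries), 5 for the ADARB1 siRNA (2659 to 3190 genes; 3632 with all), 5 to 6 for the ADAR against the ADARB1 siRNA (6675 to 7175; 7768 with all), 0 to 2 for IFNa, 3 to 5 for BX795 (5386 to 9974; 8712 with all), 4 to 6 for the combination against siNC, and 0 against BX795 alone (181 to 453; 758 with all) and for the interaction. For IFNa, 4705 genes were called with all libraries, 263 without IFNa replicate 1, 7514 without control replicate 1, 1847 without control replicate 2 and 1532 without control replicate 3. For the combination against siNC, 6829 were called with all, and 1982 (without its replicate 2) to 8557 (without control replicate 1) otherwise. Where an arm kept 1 library, that library was assumed to vary like the others. One fit of all 19 libraries (23121 genes tested) called 5042 genes for the ADAR siRNA and 1066 for the ADARB1 siRNA. The ADAR against the ADARB1 siRNA gave 4518, IFNa 7932, BX795 10885 and the combination against BX795 2201. The ADARB1 siRNA then had 3 transporter calls, IFNa 3, BX795 5 and the combination against BX795 3. In that fit SLCO1B3 (adjusted p = 0.0954) and SLC10A1 (0.206) were not called after the ADAR siRNA, nor SLCO2B1 (0.274) and SLC22A7 (0.141) after the ADARB1 siRNA, and the direct comparison of both knockdowns kept 4 of 6 transporter calls, losing SLCO1B3 (0.134) and SLC22A7 (0.349). In the combination against BX795, DESeq2 called 1264 genes and 2 transporters, no filter 1287 and 2, and the GC correction 1621 and 3. DESeq2 called 2 transporters with IFNa. Without the filter, SLC22A3 with BX795 (adjusted p = 0.0520) and SLC22A9 with the combination (0.144) lost their calls, while SLCO1B3 with BX795 (0.00200) and SLC47A1 in the ADAR against the ADARB1 siRNA (0.0220) gained them. The cause was not tested.

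Correlations of same-numbered libraries ran from -0.08 to 0.11 in batch 1 (1 of 9 pairs over 0.1) and from -0.28 to 0.27 in batch 2 (4 of 13). Groups of 2 libraries give mirrored values, so the batch 2 pairs are not independent and cannot settle whether libraries were paired. Same-numbered libraries of BX795 and the combination gave 0.21 and 0.21, and those of IFNa and the combination -0.28 and -0.28. The numbers were not taken to pair libraries. With a replicate block, SLC22A7 with IFNa (adjusted p = 0.0598) and SLCO1B3 (0.0508) and SLC22A9 (0.0641) with the combination lost their calls. The block called 612 genes and 0 transporters with IFNa, 3955 genes with the combination against siNC and 282 against BX795. The replicate block with the GC correction called 1640 genes with IFNa, 5156 with BX795, 4188 with the combination against siNC, and 1 transporter against BX795. Depth limits SLC10A1, SLC22A7 and SLC22A9 in batch 2.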
